A study of Mus musculus with 6 samples.

Results

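The 10 genes described here, Ttr, Enpp2, Igf2, Sostdc1, Folr1, Kl, Kcnj13, Aqp1, Clic6 and Otx2, are markers of the choroid plexus and were taken by symbol from the 16516 genes of an RNA-seq table of CD11b+ cells. They were chosen from their read counts in these same samples, as a gauge of how much choroid plexus RNA each sample held, so their own levels are given as a description and not as a test. The 4LPS mice were C57BL6/J males of 8 to 10 weeks that received 500 µg/kg lipopolysaccharide, a bacterial endotoxin that provokes systemic inflammation, into the peritoneum once a day for 4 days. The NS mice, the controls, were of the same strain, sex and age and received normal saline on the same 4 days. On day 7 the cortices were dissociated and cells carrying CD11b, an integrin of microglia and other myeloid cells, were taken with magnetic beads (MACS), with the cells of 2 mice pooled in each of the 3 4LPS and 3 NS samples.

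The choroid plexus hangs inside the ventricles of the brain and consists of a secretory epithelium around leaky capillaries. Its epithelium makes cerebrospinal fluid by moving ions and water from blood to ventricle, seals the blood to fluid barrier with tight junctions, and secretes carrier proteins and growth factors into the fluid. It belongs to neither the cortical parenchyma nor the myeloid lineage, and Ttr is among the most abundant transcripts of its cells.

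Total counts were 15164122 to 15462404 in the 4LPS samples and 15158344 to 15746611 in the NS samples, so depth was nearly even. The gate was checked with 10 microglia genes (Itgam, Tmem119, P2ry12, Cx3cr1 and 6 others), which summed to 46360 to 46970 CPM (counts scaled to library size with TMM factors) in 4LPS and 46600 to 49570 CPM in NS. The samples stood far apart in the 10 choroid plexus genes. These genes took 0.337%, 0.00224% and 0.0859% of all counts in 4LPS replicates 1, 2 and 3, against 1.09%, 0.896% and 0.113% in NS replicates 1, 2 and 3. NS replicates 1 and 2 were thus the highest, 4LPS replicate 2 was nearly devoid of these transcripts, and NS replicate 3 lay below 4LPS replicate 1. In bulk RNA, fewer cells of a type and less RNA per cell cannot be told apart, and the source of these transcripts was not tested.

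Among the secreted products, Ttr, which encodes transthyretin, the carrier of thyroid hormone and of retinol-binding protein in cerebrospinal fluid, had the highest level per length (FPKM) of the 10 in the 5 samples other than 4LPS replicate 2. Ttr, on chromosome 18, had 29485, 3 and 6867 counts in 4LPS replicates 1 to 3, against 93476, 82647 and 9518 counts in NS replicates 1 to 3. By count, not scaled for length, its rank among all genes was 38, 13831 and 299 in 4LPS replicates 1 to 3, against 6, 7 and 181 in NS replicates 1 to 3. The groups overlapped, because 4LPS replicate 1 exceeded NS replicate 3.

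Enpp2 encodes autotaxin, a secreted enzyme that makes lysophosphatidic acid, and it lies on chromosome 15 from 54701324 to 54816288 of GRCm39, the build of all gene positions given here. It had 16754, 236 and 4920 counts in 4LPS replicates 1 to 3, against 55550, 43516 and 6572 counts in NS replicates 1 to 3. Ttr and Enpp2 together held 88.7% to 91.1% of the counts of the 10 genes in every sample but 4LPS replicate 2, where they held 70.5%. Igf2, which encodes insulin-like growth factor 2, a growth factor released into the fluid (chromosome 7, 142204503 to 142220694), had 1361, 66 and 448 counts in 4LPS replicates 1 to 3, against 4580, 3388 and 532 counts in NS replicates 1 to 3. Sostdc1, whose product binds and restrains BMP and Wnt signals outside the cell (chromosome 12, 36364137 to 36368451), had 244, 8 and 63 counts in 4LPS replicates 1 to 3, against 666, 643 and 80 counts in NS replicates 1 to 3. For each of these secreted products 4LPS replicate 2 was lowest, NS replicate 1 was highest, and the groups overlapped.

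Among the membrane proteins, Kl encodes Klotho, which serves as a co-receptor for FGF23 and is also shed into the fluid (chromosome 5, 150876072 to 150917284). It had 1537, 1 and 438 counts in 4LPS replicates 1 to 3, against 5353, 3859 and 459 counts in NS replicates 1 to 3. Folr1, the folate receptor through which the choroid plexus loads folate into the fluid (chromosome 7, 101507537 to 101520014), had 301, 16 and 73 counts in 4LPS replicates 1 to 3, against 879, 746 and 90 counts in NS replicates 1 to 3. Kl was almost lost in 4LPS replicate 2, where it had 0.239% of the CPM of the next lowest sample, while Folr1 kept 22% there. Folr1 shares its locus with Anapc15 on the other strand, and the sources used here do not say whether the counting used strand.

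Kcnj13, an inwardly rectifying potassium channel of the apical membrane (chromosome 1, 87309135 to 87322456), had 347, 0 and 113 counts in 4LPS replicates 1 to 3, against 1158, 928 and 92 counts in NS replicates 1 to 3. Aqp1, the water channel of the same membrane (chromosome 6, 55313068 to 55325540), had 265, 0 and 83 counts in 4LPS replicates 1 to 3, against 894, 617 and 80 counts in NS replicates 1 to 3. Clic6, a protein of the chloride intracellular channel family (chromosome 16, 92282624 to 92338739), had 835, 7 and 240 counts in 4LPS replicates 1 to 3, against 2476, 1898 and 263 counts in NS replicates 1 to 3. Kcnj13 and Aqp1 were the members with no count in 4LPS replicate 2, which at this depth allows up to 3 counts. In both of them 4LPS replicate 3 lay above NS replicate 3. Kcnj13 overlaps Gigyf2, which is read from the other strand.

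Otx2, the homeodomain transcription factor needed to form and maintain the choroid plexus (chromosome 14, 48894099 to 48911276), had the lowest FPKM of the 10 in the 5 samples other than 4LPS replicate 2. It had 115, 2 and 38 counts in 4LPS replicates 1 to 3, against 336, 229 and 52 counts in NS replicates 1 to 3. The order of the samples by Otx2 was that of Ttr, with NS replicate 1 highest, then NS replicate 2, 4LPS replicate 1, NS replicate 3, 4LPS replicate 3 and 4LPS replicate 2.

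**Figure D1:**
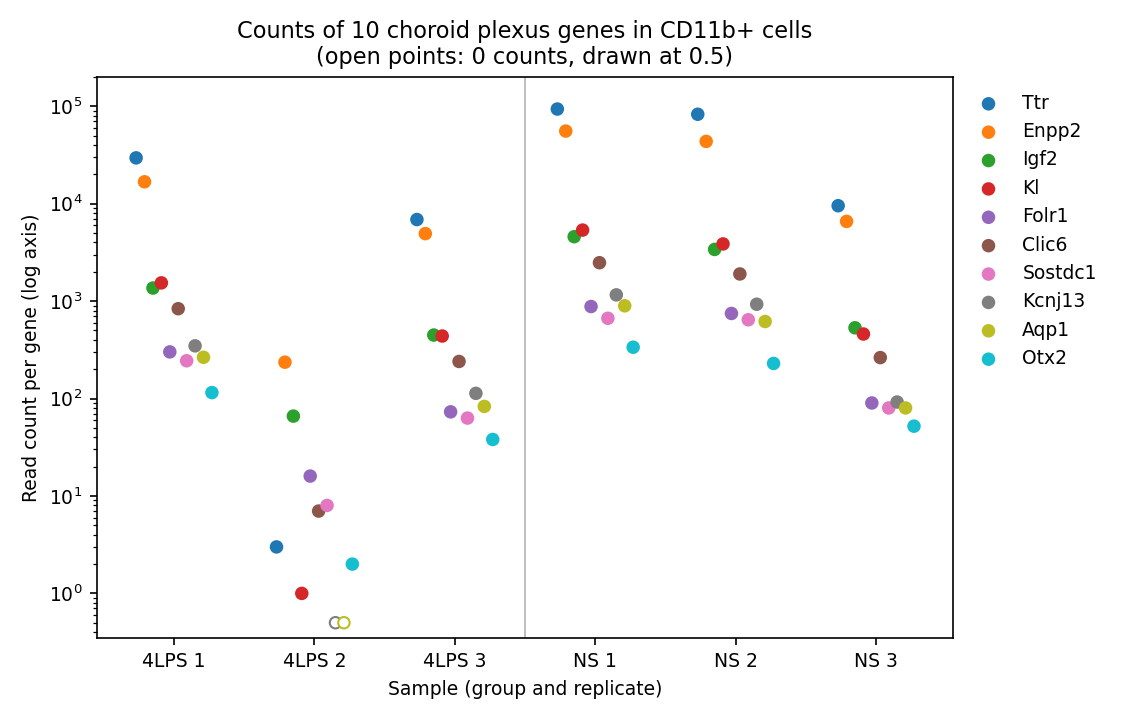
Read counts (log axis) of each of the 10 genes in the 4LPS samples (left) and NS samples (right), 1 point per gene and sample. The points move up and down together between samples, with Ttr between 6867 and 93476 counts in 5 samples and at 3 in 4LPS replicate 2, where Enpp2 (236) and Igf2 (66) stand above it.

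Because Otx2 binds DNA through the core TAATCC and is itself a member, the start sites of the members were read for that core on both strands (its reverse is GGATTA), and for TATAAA on the strand of the gene. RefSeq promoters of GRCm38.p6, from 250 bases before to 50 bases after each start, were at hand for 5 of the 10 members (Otx2, Igf2, Kcnj13, Kl and Aqp1) and gave 11 windows. The Otx2 core was in 2 of these 11 windows, and in 7.06% of all 32851 windows. Igf2 and Otx2, which hold these 2 matches, gave several windows each. Of 36 windows of other choroid plexus genes that rose with the level of the 10 (described below), 2 (5.56%) held the core. The 3 windows shown are those of Otx2 and Igf2 that hold the core and the Kcnj13 window with TATAAA close before the start. Capitals mark the match, and each is written 5′ to 3′ on the minus strand.
Otx2, chr14:48665060-48665359: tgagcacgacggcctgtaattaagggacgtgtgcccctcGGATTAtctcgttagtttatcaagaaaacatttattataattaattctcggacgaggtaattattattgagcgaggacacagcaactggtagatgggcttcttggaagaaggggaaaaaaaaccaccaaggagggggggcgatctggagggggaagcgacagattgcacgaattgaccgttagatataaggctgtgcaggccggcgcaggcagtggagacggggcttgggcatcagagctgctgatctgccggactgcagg
Igf2, chr7:142658755-142659054: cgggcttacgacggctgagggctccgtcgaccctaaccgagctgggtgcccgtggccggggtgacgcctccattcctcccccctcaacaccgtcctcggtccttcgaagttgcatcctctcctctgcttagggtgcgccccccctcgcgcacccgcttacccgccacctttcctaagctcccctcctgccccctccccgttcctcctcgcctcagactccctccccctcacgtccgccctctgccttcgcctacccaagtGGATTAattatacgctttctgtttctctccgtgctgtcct
Kcnj13, chr1:87394680-87394979: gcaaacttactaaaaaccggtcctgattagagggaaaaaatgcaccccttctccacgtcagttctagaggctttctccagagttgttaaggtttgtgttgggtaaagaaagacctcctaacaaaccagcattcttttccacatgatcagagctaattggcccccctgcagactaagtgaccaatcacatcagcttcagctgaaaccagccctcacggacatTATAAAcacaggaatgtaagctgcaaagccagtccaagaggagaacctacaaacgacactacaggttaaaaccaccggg
The core began at base -211 in Otx2 and at base 11 after the start in Igf2, where the base of the start is 1. TATAAA began at base -29 in Kcnj13 and, in another Otx2 window, at base -192, and it was in 8.32% of all windows. These matches describe letters only, and binding of Otx2 was not measured in these samples.

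On the length-scaled FPKM scale of the authors, the 10 genes kept 1 order in 5 of the 6 samples, namely Ttr, Enpp2, Igf2, Kl, Folr1, Clic6, Sostdc1, Kcnj13, Aqp1 and Otx2. The level of Ttr was 2068.04, 0.21 and 482.05 FPKM in 4LPS replicates 1 to 3, against 6542, 5660.13 and 647.76 FPKM in NS replicates 1 to 3. Otx2, at the end of the order, had a level of 3.89, 0.06 and 1.27 FPKM in 4LPS replicates 1 to 3, against 11.08, 7.38 and 1.66 FPKM in NS replicates 1 to 3. The exception was 4LPS replicate 2, where Enpp2 (5.19 FPKM) led, followed by Igf2 (1.57 FPKM) and Folr1 (1.02 FPKM).

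The proportions among the 10 genes varied far less than their levels. Over the 5 samples other than 4LPS replicate 2, the CPM of each gene spanned 8.21-fold (Otx2) to 12.8-fold (Kcnj13) from lowest to highest sample. Set against Ttr in the same sample, the span was 1.18-fold for Folr1, 1.29-fold for Sostdc1, 1.36-fold for Enpp2, 1.37-fold for Kl, 1.52-fold for Clic6, 1.59-fold for Igf2, 1.62-fold for Aqp1 and 1.70-fold for Kcnj13, and it was widest for Otx2. Every one of these spans was smaller than that of the gene's own CPM.

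Folr1 showed this best. It had 10.2 and 10.6 counts per 1000 Ttr counts in 4LPS replicates 1 and 3, against 9.40, 9.03 and 9.46 in NS replicates 1 to 3. The exact binomial 95% intervals, which cover counting error only, overlapped in all 5 samples, the widest being 8.32 to 13.4 in 4LPS replicate 3. Otx2 had 3.90 and 5.53 counts per 1000 Ttr counts in 4LPS replicates 1 and 3, against 3.60, 2.77 and 5.46 in NS replicates 1 to 3. Here 4LPS replicate 3 and NS replicate 3, the samples with less Ttr, were alike and above NS replicate 2. Enpp2 was likewise highest in 4LPS replicate 3 and NS replicate 3, with 568 and 716.5 counts per 1000 Ttr counts in 4LPS replicates 1 and 3, against 594, 526.5 and 690.5 in NS replicates 1 to 3. Its intervals were narrow (690.6 to 743 in 4LPS replicate 3 and 520.4 to 533 in NS replicate 2), so the difference in proportion was larger than counting error while 1.36-fold in size. Every gene set against Ttr, not Otx2 and Enpp2 alone, had its highest ratio of the 5 samples in 4LPS replicate 3. All these ratios share Ttr as the denominator.

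**Figure D2:**
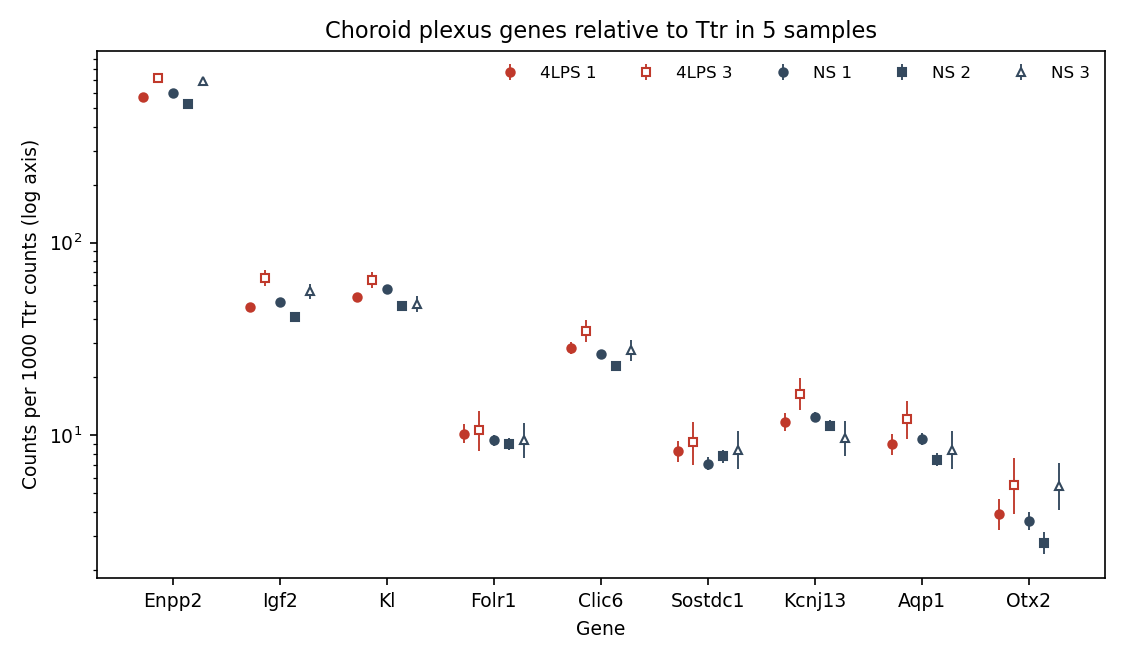
Counts of 9 genes per 1000 Ttr counts (log axis) in 4LPS replicates 1 and 3 and NS replicates 1 to 3, with exact binomial 95% intervals, and without 4LPS replicate 2, which had 3 Ttr counts. Folr1 lies between 9.03 and 10.6 in all 5 samples, and Otx2 has the widest span, from 2.77 to 5.53.

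In 4LPS replicate 2 the proportions broke down. With 3 Ttr counts (2-sided exact Poisson 95% upper limit 8.77), the highest ratio seen in the other samples gives 2.15 Enpp2 counts, or 6.28 at the upper limit of Ttr, and 236 were found. For Igf2 it gives 0.196 counts, or 0.572 at that limit, and 66 were found. Folr1 had 16 counts where this gives 0.0932 at the limit, Sostdc1 had 8 where it gives 0.0804, and Clic6 had 7 where it gives 0.306. Otx2 had 2 counts where it gives 0.0485. Kl had 1 count and Kcnj13 and Aqp1 had 0, which allows up to 3 by the 1-sided limit, so whether a remainder of these was present cannot be told. A remainder of Enpp2, Igf2, Folr1, Sostdc1, Clic6 and, with 2 counts, Otx2 was thus counted beside 3 counts of Ttr.
As background, Enpp2 is also a gene of oligodendrocytes and Igf2 of the leptomeninges. The 10 oligodendrocyte genes summed to 313, 410 and 347 CPM in 4LPS replicates 1 to 3, and the 12 leptomeningeal genes to 70.0, 33.9 and 42.3 CPM. Of the leptomeningeal sums Igfbp2, which is also a choroid plexus gene, made up 40.6, 1.97 and 13.2 CPM. The part of these cells in the remainder was not tested.

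Between the groups, the summed level of the 10 genes was 3457, 23.0 and 901 CPM in 4LPS replicates 1 to 3, against 10410, 8706 and 1099 CPM in NS replicates 1 to 3. It averaged 1460 ± 1784 CPM in 4LPS and 6738 ± 4957 CPM in NS (SD, n = 3 samples per group), so the SD was close to the mean or above it. The log2 fold changes of 4LPS over NS, as a description, lay between -2.25 for Ttr (standard error 1.61) and -1.88 for Otx2 (standard error 0.94). The mean of NS was 3.70-fold (Otx2) to 4.75-fold (Ttr) that of 4LPS. In the edgeR quasi-likelihood fit of all genes, adjusted by Benjamini-Hochberg over the 13151 genes tested, 0 of the 10 had an adjusted p under 0.05, and 0 had an unadjusted p under 0.05 in edgeR or in DESeq2. Nothing is read from this count, since the 10 were chosen on these counts. Over all genes, 2153 (16.4%) passed, 845 (6.43%) lower and 1308 (9.95%) higher in 4LPS. Without a composition factor 1711 were lower and 906 higher, and the median log2 fold change of all genes was -0.11 in place of -0.02.

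The groups overlapped for all 10 genes, but the share of all genes with such overlap was not counted, so nothing is read from this. The size of the fold changes of the 10 followed which samples were kept. Without 4LPS replicate 1 the log2 fold changes lay between -4.06 (Ttr) and -3.24 (Otx2). Without NS replicate 3 the log2 fold changes lay between -2.76 and -2.34, while without 4LPS replicate 2 they lay between -1.66 and -1.31. Without NS replicates 1 and 2, an alternative chosen after seeing the data, all 10 were above 0, between 0.14 and 0.88. The sign of the difference between the groups thus rested on NS replicates 1 and 2.

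**Figure D3:**
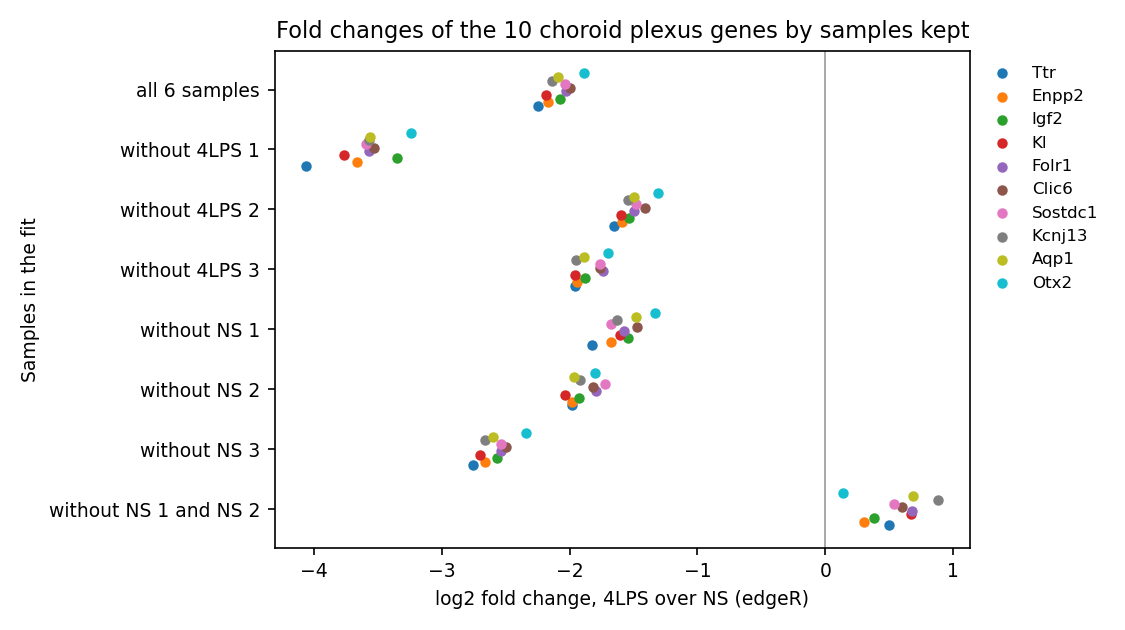
Log2 fold change of 4LPS over NS (edgeR) for each of the 10 genes, 1 row per set of samples in the fit and 1 point per gene. With all 6 samples the genes lie between -2.25 and -1.88, and without NS replicates 1 and 2 all 10 lie above 0, up to 0.88.

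Other genes of the choroid plexus, outside the 10, were read from 5 lists with 65 genes in the table, of which 60 passed the filter on low counts. These lists too were chosen with earlier results of these data known, so what is read from them here and below is not separate support. Between the groups, 7 of these 60 were lower in 4LPS, 3 were higher and 50 did not pass, beside 6.43% and 9.95% of all genes. Their median log2 fold change was -1.68, against -0.02 over all genes tested, and 55 of the 60 were below 0. With the summed level of the 10 genes in the model the median was -0.19 and 40 of the 60 were below 0. Without NS replicates 1 and 2, an alternative chosen after seeing the data, it was 0.21 and 20 of 61 were below 0.
The 7 that were lower were Car2 (carbonic anhydrase), Perp and Ocln (cell junctions), Pcp4l1, Rfx3 (a transcription factor of ciliated cells) and the efflux pumps Abcc1 and Abcc4. Car2 had 16.2, 11.3 and 11.7 CPM in 4LPS replicates 1 to 3, against 40.2, 30.5 and 22.7 CPM in NS replicates 1 to 3, with a log2 fold change of -1.25 ± 0.23 (standard error) and an adjusted p of 0.00935 in edgeR. Its groups did not overlap, and it was about as high in 4LPS replicate 2 as in 4LPS replicate 3.
The 3 that were higher were Cp, Cdh1 and Slc12a2. Cp, which encodes the copper-carrying ferroxidase ceruloplasmin, had 101, 111 and 151 CPM in 4LPS replicates 1 to 3, against 23.2, 22.7 and 45.4 CPM in NS replicates 1 to 3 (log2 fold change 1.99, standard error 0.28, adjusted p = 0.00325 from edgeR). Slc12a2, the sodium, potassium and chloride cotransporter, had 496.5, 507 and 461 CPM in 4LPS replicates 1 to 3, against 334, 302 and 307 CPM in NS replicates 1 to 3 (log2 fold change 0.64, standard error 0.06, adjusted p = 4.13e-04 from edgeR). Neither was low in 4LPS replicate 2, where Ttr was nearly absent. The number of lower genes was 4 without 4LPS replicate 2, 3 without NS replicate 1 and 37 without NS replicate 3. The 10 endothelial genes also moved with the groups, at a sum of 193, 226 and 387 CPM in 4LPS replicates 1 to 3, against 531, 423 and 771 CPM in NS replicates 1 to 3, and their part in these calls was not tested.

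To ask which genes moved with the 10 among samples of a group, each gene was fitted in edgeR on log2 of their summed CPM with the group in the model. The slope is then the log2 change of a gene per log2 unit of that level, so a gene that moves in step has a slope of 1. Of the 60 other choroid plexus genes 28 rose with the level and 0 fell, while of all 13141 genes outside the members 111 (0.845%) rose and 0 fell (946 had an unadjusted p under 0.05 in edgeR). The median slope was 0.40 over the 60 genes and -0.001 over all genes.
By role and with the summed level, 11 of 15 receptors and regulators rose, and 7 of 9 secreted proteins. So did 4 of 14 genes of fluid and ion transport, 4 of 13 of solute and vitamin transport and 2 of 9 of junctions and keratins.

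Among the genes of fluid and ion transport, Trpm3, a cation channel, had the lowest p for its slope. It had 74.1, 0.884 and 20.1 CPM in 4LPS replicates 1 to 3, against 199, 170 and 24.7 CPM in NS replicates 1 to 3, a slope of 0.92 (standard error 0.02, adjusted p = 7.06e-07 from edgeR). The bicarbonate transporter Slc4a5 had a slope of 0.97, the carbonic anhydrase Car12 of 1.03 and the potassium channel subunit Kcne2 of 0.96 (edgeR, adjusted p 1.17e-05 to 6.54e-05). These moved nearly in step with the 10. The other genes of this list with high CPM did not pass, with slopes of -0.003 for Slc12a2, 0.13 for the anion exchanger Slc4a2 and 0.03 for the potassium and chloride cotransporter Slc12a4.

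The same division ran through solute transport. The sulfate transporter Slc13a4 had 17.5, 0.476 and 4.95 CPM in 4LPS replicates 1 to 3, against 59.0, 40.3 and 4.34 CPM in NS replicates 1 to 3, with a slope of 0.97 (standard error 0.07, adjusted p = 4.38e-04 from edgeR). Slc16a8, Slc29a4 and Stra6, which carry lactate, monoamines and retinol, also rose, with slopes of 1.15, 1.00 and 0.35. The genes of this list with the highest CPM, Slc23a2 (vitamin C), Slc31a1 (copper), Slc46a1 (folate) and Abcc1, had slopes of 0.03, 0.07, 0.01 and 0.005 and did not pass. Slc23a2 was nearly level, with 278, 259 and 283 CPM in 4LPS replicates 1 to 3, against 302.5, 281 and 240 CPM in NS replicates 1 to 3.
Among junction genes, Cldn2, the claudin of leaky epithelia, rose with a slope of 0.93 (16.7, 0.340 and 5.02 CPM in 4LPS replicates 1 to 3, against 48.2, 34.2 and 4.53 CPM in NS replicates 1 to 3), as did Krt18 with 0.59, while Ocln, Perp and Spint2 had slopes of 0.04, 0.10 and 0.39 and did not pass.

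Of the secreted proteins, coagulation factor V (F5), Igfbp2, which binds insulin-like growth factors, and the sulfatase Sulf1 rose with slopes of 0.62, 0.70 and 1.05, as did Ecrg4, Wfdc2, Col8a1 and Col9a3. Igfbp2 had 40.6, 1.97 and 13.2 CPM in 4LPS replicates 1 to 3, against 114, 79.9 and 17.6 CPM in NS replicates 1 to 3. The gene of this list with the highest CPM, Cp, had a slope of -0.06 and did not pass.
Of the receptors and regulators, the prolactin receptor Prlr (slope 1.11), the serotonin receptor Htr2c (1.05) and the homeodomain factor Lmx1a (1.01) rose nearly in step, and angiotensin-converting enzyme (Ace, 0.50) and Msx1 (0.48) rose less per unit of the level. Prlr and Htr2c had no counts in 4LPS replicate 2, and 33.8 and 26.4 CPM in 4LPS replicate 1. Pcp4l1 (0.13) and Cab39l (0.16) did not pass.

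**Figure D4:**
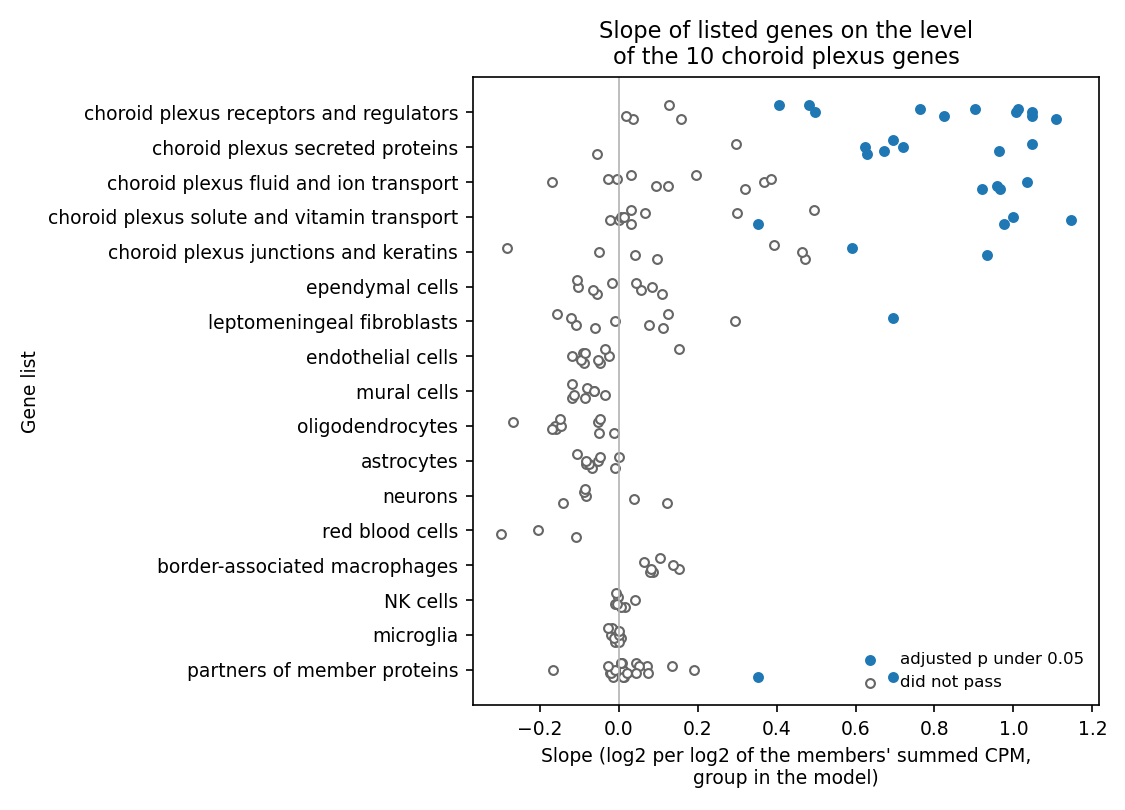
Slope of each listed gene on the summed level of the 10 genes (log2 per log2, group in the model), 1 row per list and 1 point per gene, filled where the adjusted p was under 0.05 in edgeR. Filled points reach 1.15 in the choroid plexus lists, and the other lists hold 2 filled genes, Igfbp2 and Stra6, which are also in the choroid plexus lists.

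Markers of the other cells a cortical suspension could hold were read in the same way. Since 0.845% of all genes outside the members rose with the level, lists this short could hold few such genes by that share alone. Of the genes tested, 0 of 9 ependymal, 10 endothelial, 8 mural, 10 oligodendrocyte, 9 astrocyte, 6 neuron, 3 red blood cell, 7 border-associated macrophage, 7 NK cell and 10 microglia genes passed for a slope, and of 10 leptomeningeal genes Igfbp2 did. The ependymal genes, from the ciliated lining of the same ventricles, summed to 39.7, 36.9 and 25.2 CPM in 4LPS replicates 1 to 3, against 45.7, 35.4 and 53.1 CPM in NS replicates 1 to 3. Their sum was thus no lower in 4LPS replicate 2 than in 4LPS replicate 3 or NS replicate 2. The leptomeningeal genes summed to 70.0, 33.9 and 42.3 CPM in 4LPS replicates 1 to 3, against 176, 122 and 63.2 CPM in NS replicates 1 to 3. That order of samples is the order of Ttr, and Igfbp2, which is also in a choroid plexus list, made up a large part of the sum. It had 40.6, 1.97 and 13.2 CPM in 4LPS replicates 1 to 3, against 114, 79.9 and 17.6 CPM in NS replicates 1 to 3. Col1a2, the next highest in mean CPM, did not follow that order. It had 9.51, 9.99 and 9.15 CPM in 4LPS replicates 1 to 3, against 16.1, 11.7 and 13.9 CPM in NS replicates 1 to 3.
Between the groups, 4 of 10 endothelial, 5 of 9 astrocyte, 3 of 10 leptomeningeal genes and 1 microglia gene (P2ry12) were lower in 4LPS, while 7 of 7 NK cell genes and 1 border-associated macrophage gene (Ms4a7) were higher. Over all genes 6.43% were lower and 9.95% higher. No ependymal, mural, oligodendrocyte, neuron or red blood cell gene passed. Every listed gene in the table had counts in at least 1 sample.

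Of the 60 choroid plexus genes, 28 passed for the slope and 10 between the groups, and no gene passed both. This separation is partly built into the fits, so nothing is read from it. A gene that follows the level varies widely within each group, and the fit between the groups counts that variation as error. The 28 choroid plexus genes that rose with the level had log2 fold changes of -2.49 to -1.44 between the groups, and 0 of the 28 passed there (edgeR, adjusted p 0.0742 to 0.256). The 7 that were lower in 4LPS had slopes of 0.001 to 0.13, and none passed for the slope (edgeR, adjusted p 0.131 to 0.996). Of all 111 genes outside the members that rose with the level, Tgfb2, Cgnl1 and Slc38a3 were lower in 4LPS (log2 fold changes -1.64, -1.57 and -1.52, adjusted p = 0.0264, 0.0293 and 0.0469 from edgeR) and 0 were higher, beside 6.43% and 9.95% of all genes. These 3 are named because they are so few and were chosen after their values were seen.
Without 4LPS replicate 2, 46 of 64 choroid plexus genes tested rose and 1 fell (355 of all genes rose and 214 fell), and without 4LPS replicate 1, 17 of 64 rose (33 of all genes). Leaving out each of the other samples in turn gave 21 to 30 choroid plexus genes that rose.

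**Figure D5:**
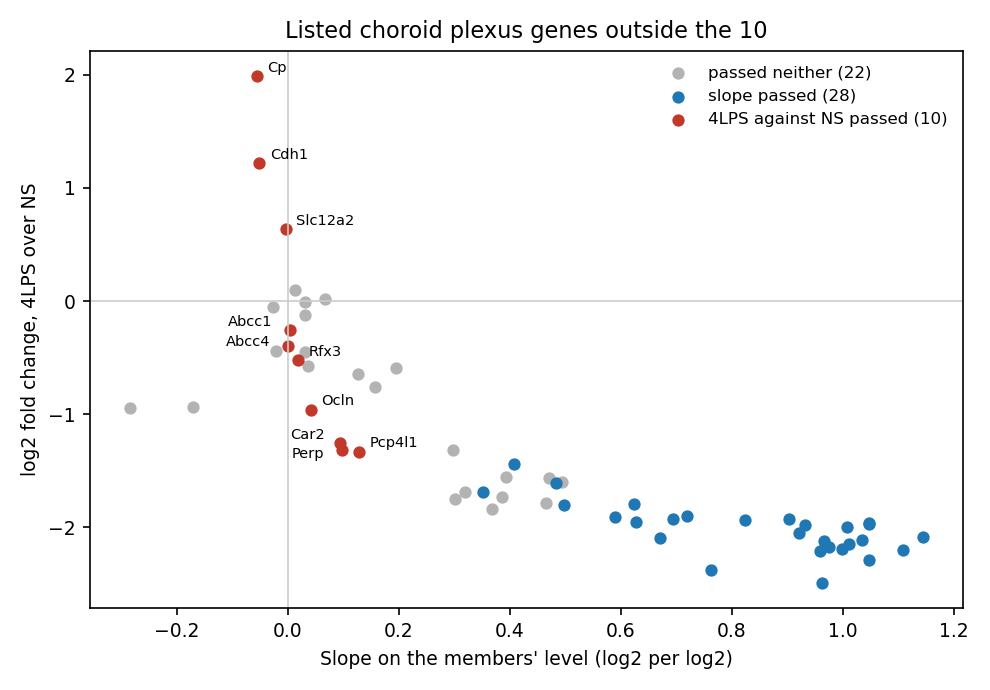
Log2 fold change of 4LPS over NS against the slope on the level of the 10 genes, for the 60 choroid plexus genes outside them. The 28 genes that passed for the slope lie between -2.49 and -1.44 in fold change, while the 10 that passed between the groups, from Cp at 1.99 down to Pcp4l1 at -1.33, lie at slopes up to 0.13.

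Likeness to Ttr was measured as the percentage of a gene's summed CPM that would have to move between samples to give the shares of Ttr over the 6 samples, for 13340 genes with at least 50 counts in all. The members other than Ttr lay at 2.26% (Folr1) to 7.55% of Ttr. The median was 9.68% over the 64 other choroid plexus genes compared, against 45.5% over all 13330 genes outside the members. The listed choroid plexus genes that passed between the groups all lay farther from Ttr than 9.68%, from 27.0% (Car2) to 68.3% (Cp). This too is partly built in, since a gene with the shares of Ttr varies widely within each group, so nothing is read from it. The 10 nearest genes outside the members were Lmx1a (1.87%), Epn3 (2.79%), Cltrn (2.79%), Kcnh1 (2.83%), Trpm3 (2.92%), Cdh3 (2.97%), Steap2 (2.97%), Atp2b3 (3.07%), Mfrp (3.40%) and Slc4a5 (3.45%).
Atp2b3, a calcium pump of the plasma membrane outside the lists, had 52.3, 0.136 and 14.2 CPM in 4LPS replicates 1 to 3, against 156, 122 and 14.1 CPM in NS replicates 1 to 3. Mfrp, a membrane protein best known from the eye, had 20.0, 0.0680 and 5.29 CPM in 4LPS replicates 1 to 3, against 64.2, 49.7 and 4.59 CPM in NS replicates 1 to 3. Both had the pattern of Ttr without being in a list, and of the 50 nearest genes 18 were listed choroid plexus genes. Within 10% of Ttr lay 117 genes outside the members, 33 of them listed. Points of likeness share the same 6 libraries, so they describe these samples only.

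The products of several members act on receptors or carriers that other cells make, and 22 such partners could be tested. Of them 4 were lower in 4LPS, 3 were higher and 15 did not pass, beside 6.43% and 9.95% of all genes, with a median log2 fold change of -0.08. Of the receptors for lysophosphatidic acid, the product of Enpp2, Lpar5 had 88.5, 98.8 and 98.6 CPM in 4LPS replicates 1 to 3, against 62.4, 73.0 and 66.7 CPM in NS replicates 1 to 3 (log2 fold change 0.50, standard error 0.07, adjusted p = 0.00421 from edgeR). Lpar6 had 154, 159 and 146 CPM in 4LPS replicates 1 to 3, against 187, 181.5 and 209 CPM in NS replicates 1 to 3 (log2 fold change -0.33, standard error 0.06, adjusted p = 0.012 from edgeR). These receptors for the same lipid thus changed in opposite directions, each without overlap of the groups.

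For Igf2, the receptor Igf1r had 49.8, 48.9 and 54.9 CPM in 4LPS replicates 1 to 3, against 87.0, 69.5 and 76.7 CPM in NS replicates 1 to 3 (log2 fold change -0.60, standard error 0.09, adjusted p = 0.00442 from edgeR). Igfbp4, a binding protein, was higher (log2 fold change 0.49, adjusted p = 0.0141 from edgeR). Thra, a thyroid hormone receptor, and Fgfr1, through which Klotho works, were lower (log2 fold changes -0.54 and -0.58, adjusted p = 0.0139 and 0.0377 from edgeR), and Lrp5, a Wnt co-receptor, was higher (0.23, adjusted p = 0.0348 from edgeR). Folr2, the folate receptor of macrophages and a neighbour of Folr1, had 13.8, 6.19 and 9.63 CPM in 4LPS replicates 1 to 3, against 4.41, 4.53 and 8.06 CPM in NS replicates 1 to 3, and did not pass (log2 fold change 0.80, adjusted p = 0.14 from edgeR). Its samples did not follow the order of Folr1.
None of the 7 partners that passed rose with the level of the 10 genes, with slopes of -0.02 to 0.08. Without a composition factor 2 were higher and 5 lower, and without 4LPS replicate 3 or NS replicate 1 the number that passed was 4 in place of 7.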

How the data were processed

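RNA was sequenced from CD11b+ cells of 3 4LPS and 3 NS samples, and samples were grouped by their labels. The authors filtered paired reads, mapped them with HISAT2 2.0.4 and Bowtie2 2.2.5 (mm39 and mm10 are both named in the submitters' processing notes) and estimated expression with RSEM 1.2.8. The sources used here do not give the gene annotation or the use of strand. The deposited table holds expected counts, which are estimated counts that are not normalized, and FPKM values, which the authors scaled for gene length and library total. The deposited TPM values and the normalized signal were not used further, nor were the authors' group means.

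The expected counts (2.77% were fractional) entered edgeR 4.0.16 in R 4.3.3 after rounding (TMM factors, filterByExpr on the groups, quasi-likelihood F-test, Benjamini-Hochberg over all genes tested, threshold 0.05). Log2 fold changes are 4LPS over NS. CPM values are rounded counts scaled to library size with TMM factors. Counts of the 10 genes were the same before and after rounding. With 3 samples per group no exact permutation test of 1 gene can pass 0.05, and p-values are from edgeR fits of the whole table. DESeq2 1.42.0 was an alternative, as were RLE factors, no composition factor, other filters, a replicate block, the summed level of the 10 genes as a covariate and leaving out each sample. The fit between the groups was tested on simulated counts in which genes varied independently, and the fit of the slope was not.

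The members and the gene lists (5 of choroid plexus genes, 11 of other cells and 1 of partners of the members' proteins) were chosen with earlier results of these data known. Genes named from a list are the 4 with the highest mean CPM in the choroid plexus lists, and those that passed between the groups where 5 or fewer passed in a direction. The 10 genes most like Ttr are named too. Other genes named, such as those that rose with the level, were chosen after their values were seen. Gene coordinates were looked up by symbol in GENCODE for GRCm39, and promoter sequences are those of RefSeq for GRCm38.p6. Python 3.11.15 was used for the descriptions.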

Additional observations from a re-analysis of the deposited data

How the results depend on the processing

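The number of genes that passed between the groups, 2153 with all samples, was 1287 with the summed level of the 10 genes as a covariate, and ranged from 1150 to 2844 when each sample was left out. Of the choroid plexus genes outside the 10, the number lower in 4LPS was 7, against 3 with that covariate and 3 to 37 when each sample was left out. The partners that passed numbered 7, and 4 to 9 when each sample was left out. The choroid plexus genes that rose with the level numbered 28, against 20 with Ttr alone as the level and 17 to 46 when each sample was left out. In the alternatives chosen after seeing the data, leaving out NS replicates 1 and 2 gave 879 genes, 1 choroid plexus gene lower and 3 partners, and leaving out 4LPS replicate 2 as well gave 253, 1 and 0. Fewer samples were fitted in each of these.

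The labels do not say whether 4LPS and NS samples with the same replicate number were paired. Their deviations from the group means correlated at 0.473, -0.262 and 0.066 across genes, and 3 such values cannot settle it. With the replicate number as a block, 2357 genes passed, and 16 choroid plexus genes were lower.

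For the 10 genes, the fit with their own summed level as a covariate was not counted among the alternatives. Under the 12 alternatives per gene that were counted, their log2 fold changes were below 0 in 120 of 120 values. These refit the same libraries for genes that move together and were chosen on these counts, so they are not separate support. Each value moved by less than the spread between samples, but that spread was wide. Ttr went from -2.25 to -4.06 without 4LPS replicate 1 and still stayed within it. Above 0 were all 10 without NS replicates 1 and 2, and also with 4LPS replicate 2 left out as well. Depth limits the statements on 4LPS replicate 2, where 6 of the 10 genes had 7 counts or fewer and a count of 0 allows up to 3. With 3 pooled samples per group, p-values measure the spread between these pools only.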

Other observations

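Of the 111 genes outside the 10 members that rose with their level, 83 were in none of the choroid plexus lists. The lowest adjusted p-values among these 83, from edgeR, were those of Atp2b3 (slope 1.06, adjusted p = 1.42e-06), Mfrp (slope 1.12, adjusted p = 3.97e-06), Abca4 (slope 0.99, adjusted p = 2.12e-05), Steap2 (slope 0.84, adjusted p = 6.4e-05) and Strip2 (slope 0.78, adjusted p = 2.65e-04), and they were named after their values were seen. Abca4 encodes a lipid transporter best known from photoreceptors, and Atp2b3 a calcium pump of the plasma membrane. Further down were Mest (slope 0.90), an imprinted gene as Igf2 is, and A2m (slope 0.84), which encodes the protease inhibitor alpha-2-macroglobulin. Their levels followed the 10 genes among samples of a group, and where their transcripts came from was not tested.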
